A study of Arabidopsis thaliana with 12 samples.

Results

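Roots of Arabidopsis thaliana seedlings treated with chitin were compared directly with roots treated with oligogalacturonides (OGs), array against array. The comparison used the 3 arrays titled 25min chitin and the 3 arrays titled 25min OGs, chosen by their titles and paired by biological replicate number, which is 6 of the 12 arrays of the series. Chitin here means chito-oligomers, in which N-acetylglucosamine units are linked in a chain as in the walls of fungi. OGs are chains of galacturonic acid released from pectin, the gel of plant cell walls. All groups were roots of 7-day-old seedlings of ecotype Col-0 grown through a nylon mesh, with no transgene or mutation named, harvested after 25 min with the elicitor or with none. There were 3 arrays for each of chitin, OGs and no-elicitor control. The control arrays served to place levels, and no test set chitin or OGs against them. The control arrays and the 3 cellobiose arrays also entered the estimate of spread behind every test of chitin against OGs. Each sample was the root tissue of many seedlings. RNA samples were screened by the submitters for their WRKY30 level by qRT-PCR before hybridization, and what that screen does to the differences below was not tested. The labels state no dose for either elicitor, so a difference between the elicitors cannot be told apart from a difference in dose.

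As background, plant cells sense chito-oligomers through receptor kinases with LysM domains, among them CERK1 and LYK5, and OGs have been linked to wall-associated kinases that bind pectin. Both signals are known to set off calcium entry, an oxidative burst, MAP kinase activity and, within minutes, transcription of WRKY and ERF factors, ubiquitin ligases and wall enzymes. Chitin is a sign of a fungus, whereas OGs are released from the plant's own wall when pectin is broken down.

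Expression was read on Affymetrix ATH1 arrays, on which a gene is measured by a probe set of short oligonucleotides. Values are log2 intensities after GCRMA, a normalization between arrays, so 1 unit is a 2-fold difference, and a shift shared by all genes would not be visible. Array medians ran from 6.50 to 6.57 in the chitin group and from 6.56 to 6.57 in the OGs group, and replicate arrays correlated at 0.991 to 0.993 and at 0.986 to 0.990 across probe sets. Chitin and OGs arrays correlated with each other at 0.985 to 0.992, so pairs of arrays from different elicitors were about as alike as replicates. Of 22746 probe sets, 13513 are listed with exactly 1 gene and the other called ones appear by probe set ID. The root hair genes EXPA7 and EXPA18, expansins of growing hairs, averaged 9.24 and 9.55 with chitin and 9.79 and 9.81 with OGs. RCA, the Rubisco activase of green tissue and the one shoot marker with a named probe set, stood at 10.84 ± 0.19 with chitin, 10.71 ± 0.20 with OGs and 11.11 ± 0.56 in controls (SD, n = 3 each). Both root hair genes were thus bright, and the photosynthetic transcript was brighter than either in the chitin, OGs and control means. Whether the samples held root tissue alone was not tested.

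Few probe sets passed between the elicitors, which with 3 arrays each does not show that few genes differed. A NAC factor, a protein phosphatase and a U-box protein were among those higher with chitin. With limma at an adjusted p under 0.05, 16 probe sets were higher with chitin than with OGs and 8 were lower, together 24, or 0.106% of those tested (0.0703% higher, 0.0352% lower). At an unadjusted p under 0.05 there were 1447, which is 6.36%. The differences of the 16 ran from 0.71 to 4.38 log2 with a median of 2.28, and 14 of them were at least 2-fold. Those of the 8 ran from -1.77 to -0.58 with a median of -0.98, and 4 were at least 2-fold. In tissue samples such as these, fewer cells of a type and less RNA per cell cannot be told apart. Scaling on the 24 poly-A spike-in probe sets gave 250 higher and 62 lower with limma in place of 16 and 8. The limma variance was then shared fully by all probe sets, and 822 had an unadjusted p under 0.05. Ordinary t statistics on the same scaling called 0, so the larger count does not show more differences. The count depended on single arrays: it was 19, 5 and 4 without chitin replicates 1, 2 and 3, and 2, 4 and 105 without OGs replicates 1, 2 and 3. Of the 24, 2 passed whichever of the 6 arrays was left out, namely AT3G12910 and 249495_at, and 14 passed under a single one of the 6 omissions. With the 6 arrays alone, which leave 2 residual degrees of freedom, limma called 0 (1152 at an unadjusted p under 0.05). Ordinary t statistics without a shared variance called 1, the unnamed probe set 261082_at (-0.25 ± 0.01 log2, SE), which was not among the 24.

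**Figure D1:**
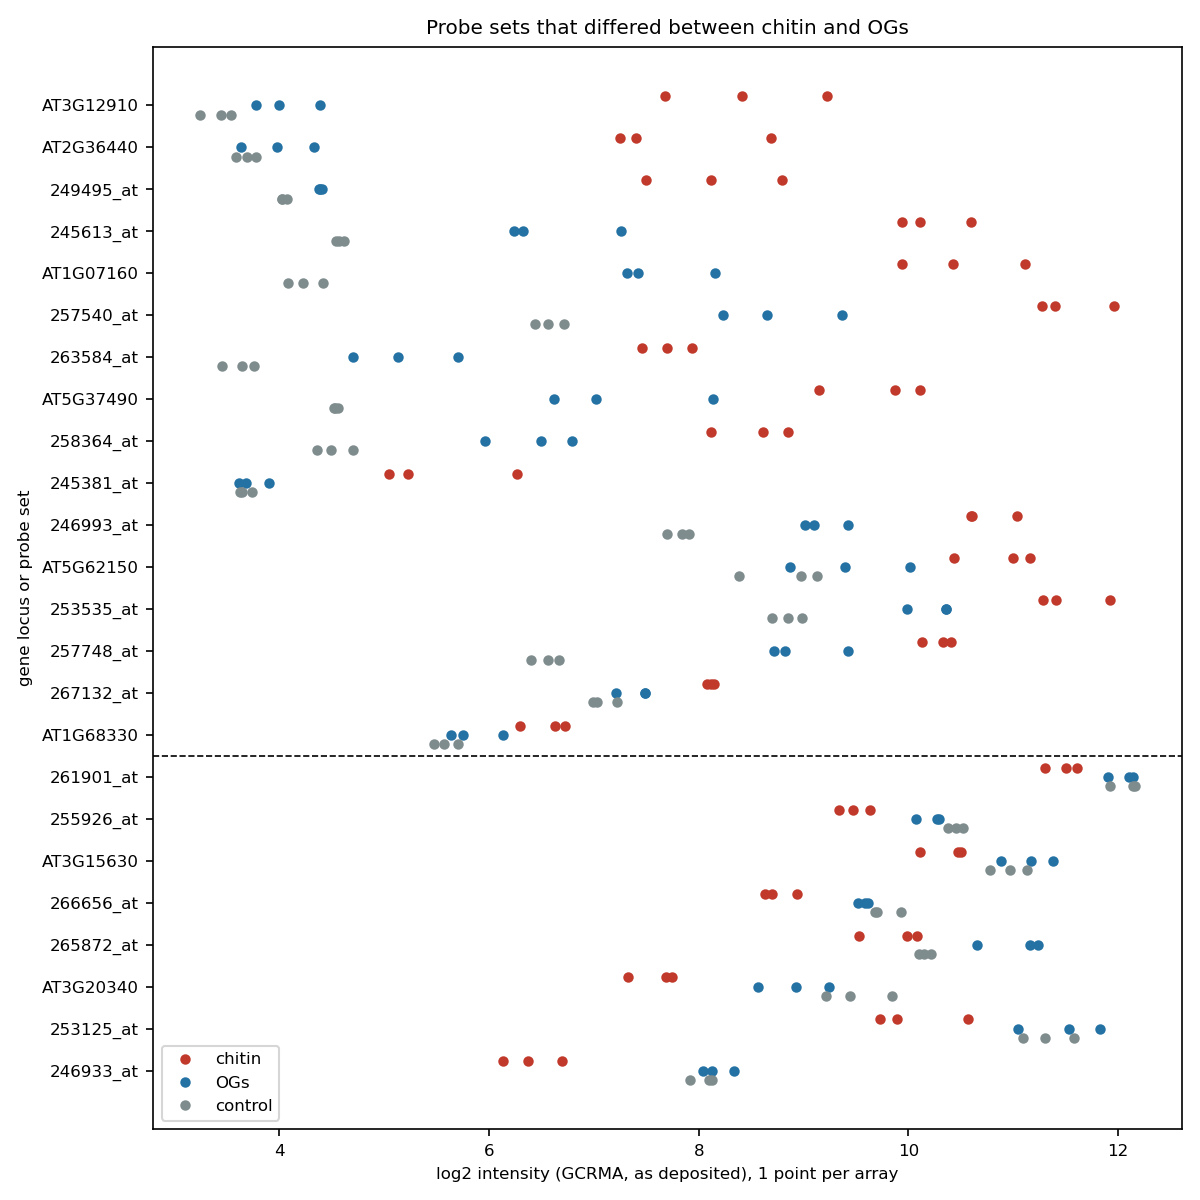
Log2 intensity (horizontal) of the 24 probe sets that differed between chitin and OGs, 1 point per array, with chitin in red above OGs in blue above control in grey in each row; the dashed line parts the 16 higher from the 8 lower with chitin. In every row the 3 chitin arrays lie clear of the 3 OGs arrays (above them in 4.72% and below them in 4.89% of all probe sets), and below the line most OGs points lie at or near the control points.

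The widest gap belonged to AT3G12910, which encodes a NAC domain protein, a plant class of transcription factors. Its log2 levels were 7.68, 9.23 and 8.42 on the chitin arrays, 3.78, 4.00 and 4.39 on the OGs arrays and 3.24, 3.45 and 3.54 on the control arrays. All chitin arrays were far above the others, and the OGs arrays were only just above the controls. The difference of chitin minus OGs was 4.38 ± 0.24 log2 (SE), 20.9-fold, with an adjusted p of 3.94e-04 (limma). It lay between 4.00 and 4.64 whichever of the 6 arrays was left out, with adjusted p from 1.23e-05 to 0.00636, while ordinary t statistics gave an adjusted p of 0.0538. The cellobiose arrays averaged 4.75 ± 0.29 (SD, n = 3), close to OGs. Called probe sets varied in this. Cellobiose averaged 4.03 for AT2G36440, close to OGs, and 6.365 for 249495_at, between the elicitors. For AT3G20340 it averaged 7.615, close to chitin.

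AT2G36440, a locus with no symbol in the annotation used, behaved likewise. Its levels were 7.40, 8.69 and 7.25 with chitin, 3.98, 3.63 and 4.34 with OGs and 3.695, 3.78 and 3.59 in controls. The OGs arrays overlapped the controls, and chitin stood apart from both. The difference was 3.80 ± 0.35 log2 (SE), 13.9-fold (limma, adjusted p = 0.00808). Without OGs replicate 1 or OGs replicate 2 AT2G36440 did not pass, at 3.80 and 3.5 log2 (adjusted p = 0.0781 and 0.0578; the lowest of the single-array omissions was 0.00259).

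AT1G07160 encodes a protein phosphatase 2C, an enzyme class that removes phosphate from kinases and their targets. It was at 9.94, 11.11 and 10.42 with chitin, 7.42, 7.31 and 8.15 with OGs and 4.23, 4.42 and 4.08 in controls. Unlike the previous gene, it was well above the controls with either elicitor, and the groups did not overlap. The difference was 2.86 ± 0.32 log2 (SE; limma, adjusted p = 0.0298). AT5G37490, a U-box protein of the ubiquitin ligase class, was at 9.14, 10.11 and 9.88 with chitin, 7.02, 6.62 and 8.13 with OGs and 4.53, 4.56 and 4.52 in controls, a difference of 2.45 ± 0.32 log2 (SE; limma, adjusted p = 0.0389). The adjusted p ran from 0.0151 to 0.188 for AT1G07160 and from 0.0105 to 0.224 for AT5G37490 over the single-array omissions. AT1G07160 passed without chitin replicate 1 or OGs replicate 3, and AT5G37490 without OGs replicate 3 alone.

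AT5G62150, which encodes a protein with a LysM domain, a fold that can bind chitin, was bright in every group. It was at 10.43, 11.16 and 11.00 with chitin, 8.87, 9.39 and 10.01 with OGs and 8.38, 8.98 and 9.13 in controls. Within each number chitin was the higher array and OGs overlapped the controls. The difference was 1.44 ± 0.18 log2 (SE; limma, adjusted p = 0.0378), it passed only without OGs replicate 3 among the single-array omissions, and without the replicate block its adjusted p was 0.159. AT1G68330, a locus with no symbol here, was higher with chitin by 0.71 ± 0.10 log2 (SE), at 6.55 ± 0.23 with chitin, 5.84 ± 0.26 with OGs and 5.59 ± 0.12 in controls (SD, n = 3; limma, adjusted p = 0.0474). Its call ended without the replicate block too (adjusted p = 0.165) and in 5 of the 6 omissions, all but OGs replicate 3.

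The other 10 probe sets higher with chitin have no gene listed in the annotation used. The largest difference among them, 3.74 ± 0.23 log2 (SE; limma, adjusted p = 6.42e-04), was that of 249495_at, at 7.50, 8.79 and 8.12 with chitin, 4.38, 4.39 and 4.41 with OGs and 4.02, 4.07 and 4.02 in controls. Next came 245613_at at 9.94, 10.60 and 10.11 with chitin, 6.32, 6.24 and 7.26 with OGs and 4.57, 4.54 and 4.62 in controls (3.61 ± 0.29 log2, SE; limma, adjusted p = 0.00416). With OGs the first of them lay within 0.5 units of the controls and the second well over 1 unit above them. Across all 16, every chitin array was above every control array, as in 10.1% of all probe sets. The OGs arrays were all above the controls for 11 of the 16, against 8.18% of all probe sets, and overlapped them for 5. The chitin and OGs arrays both served to choose the 16, so these counts are descriptions and not further results.

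The 8 probe sets lower with chitin had chitin levels below every control array, as in 16.8% of all probe sets. OGs overlapped the controls for 5 of them, lay below them for 2 and above them for 1 (10.6% and 8.18% of all probe sets). These counts again only describe arrays that served in the choice. AT3G20340, a locus with no symbol, was at 7.69, 7.32 and 7.75 with chitin, 8.57, 8.93 and 9.24 with OGs and 9.21, 9.44 and 9.84 in controls. The groups of chitin and OGs did not overlap, and the highest OGs array reached the control range. The difference was -1.33 ± 0.16 log2 (SE; limma, adjusted p = 0.0378), with adjusted p from 0.0278 to 0.198 over the single-array omissions, under 0.05 without chitin replicate 1 or OGs replicate 3.

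AT3G15630, the other of the 8 with a listed gene, was lower with chitin by a smaller step. It was at 10.12, 10.50 and 10.48 with chitin, 10.88, 11.17 and 11.38 with OGs and 10.78, 10.97 and 11.13 in controls. OGs and control arrays overlapped. The difference was -0.78 ± 0.09 log2 (SE; limma, adjusted p = 0.0378), it passed only without OGs replicate 3 among the omissions, and without the replicate block its adjusted p was 0.194. Of the 6 unnamed probe sets, 246933_at had the largest difference (-1.77 ± 0.23 log2, SE; limma, adjusted p = 0.0392), at 6.37, 6.13 and 6.70 with chitin, 8.04, 8.34 and 8.13 with OGs and 8.10, 7.91 and 8.13 in controls. OGs levels stood on top of the controls there. The probe set 265872_at was the one with OGs above control: it was at 10.08, 9.99 and 9.53 with chitin, 11.16, 10.65 and 11.23 with OGs and 10.22, 10.11 and 10.15 in controls, so that the elicitors lay on opposite sides of the control arrays. Its difference was -1.15 ± 0.16 log2 (SE; limma, adjusted p = 0.0474), its call ended without chitin replicate 1, 2 or 3 and without OGs replicate 1 or 2, and centring the arrays on their medians also ended it (adjusted p = 0.0573).

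**Figure D2:**
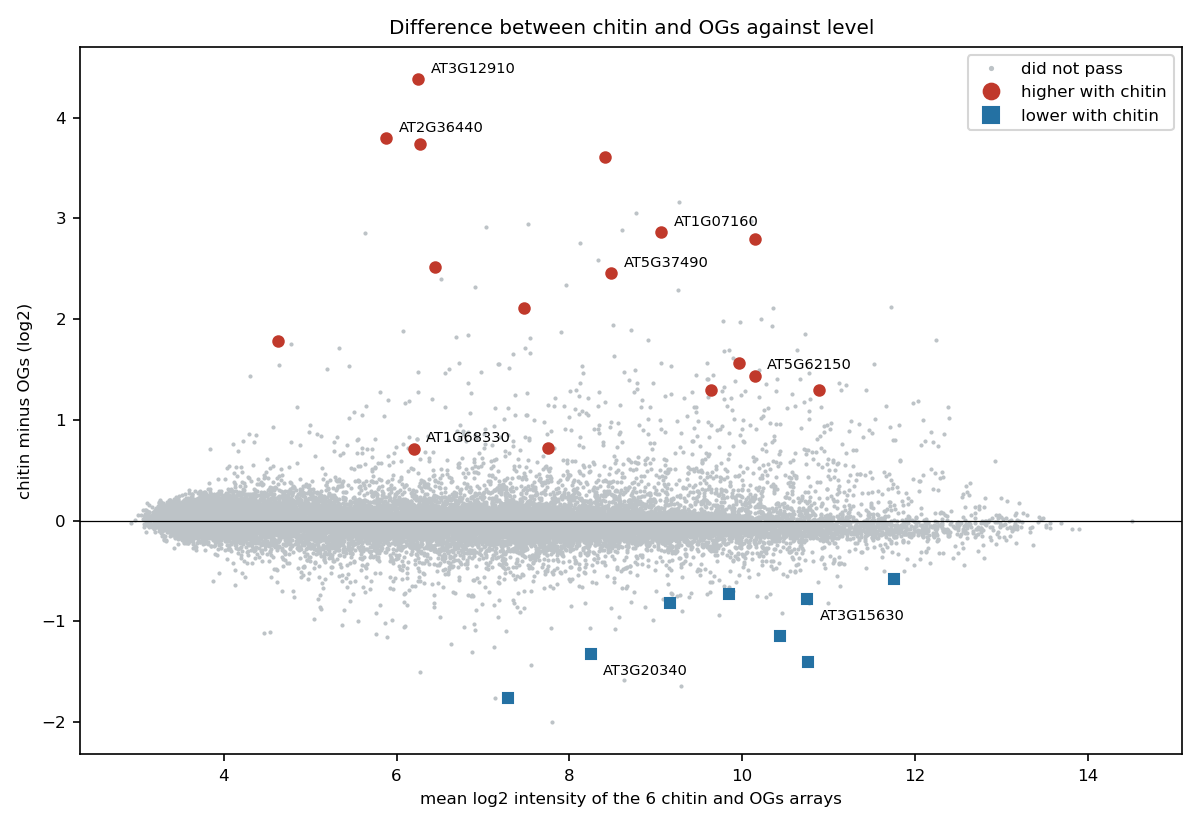
Chitin minus OGs on the log2 scale (vertical) against the mean log2 intensity of the 6 arrays (horizontal) for all 22746 probe sets; red circles are the 16 higher and blue squares the 8 lower with chitin, with loci given where 1 gene is listed. The cloud is narrow, and 178 probe sets lie at 1 or above against 29 at -1 or below.

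Sizes were lopsided. A mean difference of at least 1 log2 was seen for 178 probe sets toward chitin and for 29 toward OGs, most of which did not pass, while the median over all probe sets was -0.01. The replicates shared in this unequally. For all 16 probe sets higher with chitin, replicate number 2 gave the largest of the 3 within-number differences, against 43.9% of all probe sets. Chitin replicate 2 was the highest chitin array for 15 of the 16 (35.7% of all probe sets), and OGs replicate 3 the highest OGs array for 15 (32.1%). Without the number 2 arrays of every group, 4 probe sets passed, among them AT3G12910 at 3.96 and AT2G36440 at 3.17 log2.

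The largest named differences beyond the called ones were read from the 15 highest and 15 lowest among probe sets of 1 gene, where the arrays differed the same way in all 3 pairs and the unadjusted p was under 0.01. Since size and sign chose them, no count over these 30 supports anything. Of the 15 highest, 4 had passed the adjusted test. AT4G28460 and AT2G23270 encode precursors of small secreted peptides that microbial patterns are known to induce. AT4G28460 was at 10.61, 11.12 and 10.82 with chitin, 7.19, 7.34 and 8.53 with OGs and 5.67, 5.09 and 4.76 in controls, a difference of 3.16 ± 0.47 log2 (SE) with an adjusted p of 0.058 (limma). AT2G23270 was at 9.53, 10.62 and 10.01 with chitin, 6.21, 6.33 and 8.97 with OGs and 4.72, 4.87 and 4.44 in controls (2.88 ± 0.62 log2, SE; limma, adjusted p = 0.205). OGs replicate 3 was much nearer to chitin than the other OGs arrays there. AT4G37290, of the same peptide family, was looked up after these values were seen, and differed by 1.82 ± 0.28 log2 (SE; limma, adjusted p = 0.0676).

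**Figure D3:**
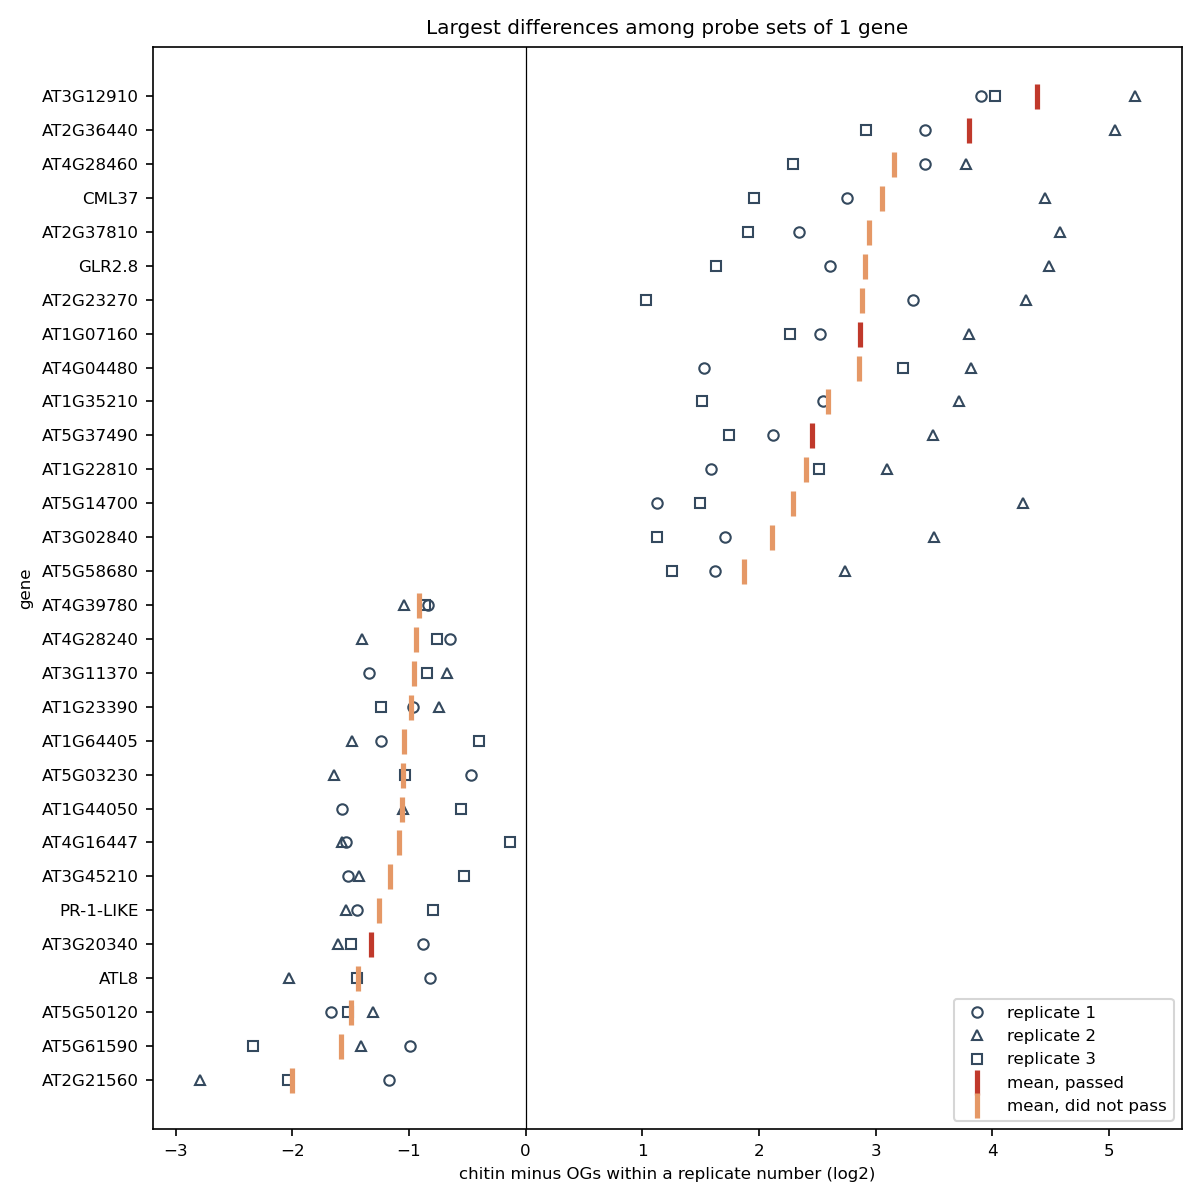
Chitin minus OGs within each replicate number (log2, horizontal) for the 15 highest and 15 lowest differences among probe sets of 1 gene; open symbols are the 3 replicate numbers and bars their mean, dark red where the adjusted test was passed. The triangles of replicate 2 lie farthest right for all of the upper 15, from 2.73 to 5.23.

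CML37, a calmodulin-like calcium sensor, was at 10.29, 10.70 and 9.92 with chitin, 7.54, 6.24 and 7.96 with OGs and 6.54, 3.83 and 3.80 in controls. The elicitors did not overlap, and control replicate 1 lay inside the OGs range. Its difference of 3.06 ± 0.65 log2 (SE) did not pass (limma, adjusted p = 0.202; interval 1.59 to 4.52), and was 2.29 without chitin replicate 2 and 3.62 without chitin replicate 1. GLR2.8, a glutamate receptor-like cation channel, was at 7.62, 9.25 and 8.61 with chitin, 5.01, 4.76 and 6.98 with OGs and 4.43, 4.03 and 3.92 in controls. OGs replicate 3 was again the array nearest to chitin. The difference of 2.91 ± 0.65 log2 (SE) did not pass (limma, adjusted p = 0.214) and did without OGs replicate 3, at 3.68 log2 (adjusted p = 0.0427, against up to 0.842 for the other omissions).

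AT1G22810, an ERF-type transcription factor, differed by 2.4 ± 0.42 log2 (SE), at 8.69, 7.28 and 7.18 with chitin, 7.10, 4.18 and 4.67 with OGs and 4.01, 3.52 and 3.80 in controls (limma, adjusted p = 0.0965). AT3G02840 and AT5G58680, both armadillo repeat proteins, differed by 2.11 ± 0.42 and 1.87 ± 0.32 log2 (SE; limma, adjusted p = 0.176 and 0.0917). AT3G02840 averaged 11.41 ± 0.24 with chitin, 9.30 ± 1.02 with OGs and 4.21 ± 0.34 in controls (SD, n = 3), so it was bright with either elicitor. AT2G37810, a protein with cysteine- and histidine-rich C1 domains, was at 8.23, 9.60 and 9.13 with chitin, 5.89, 5.03 and 7.23 with OGs and 4.54, 4.39 and 4.53 in controls (limma, adjusted p = 0.0917). AT5G14700, a reductase-like protein, averaged 10.40 ± 0.38 with chitin, 8.11 ± 1.403 with OGs and 5.09 ± 0.51 in controls (SD, n = 3; limma, adjusted p = 0.283). Its wide OGs spread came with a low value of 6.49 in OGs replicate 2. AT4G04480 and AT1G35210, loci with no symbol, completed the 15, at 2.86 ± 0.41 and 2.59 ± 0.58 log2 (SE; limma, adjusted p = 0.0558 and 0.221). AT4G04480 had OGs levels of 4.23, 4.22 and 4.17, inside the control range of 4.09 to 4.48.

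Among the 15 lowest, AT3G20340 had passed the adjusted test and the other 14 had not. Chitin lay below every control array for 14 of these 15, against 16.8% of all probe sets. OGs overlapped the controls for 13, lay above them for 1 and below them for 1. Over all probe sets OGs lay above the controls in 8.18% and below them in 10.6%, so overlap was the usual case. AT2G21560 had the lowest difference, at 7.58, 5.97 and 6.86 with chitin, 8.75, 8.76 and 8.90 with OGs and 9.12, 9.05 and 9.28 in controls (-2.00 ± 0.32 log2, SE; limma, adjusted p = 0.0767). Its chitin replicates spread over more than 1 unit, while the OGs replicates were tight. AT5G61590, an ERF factor with the synonym DEWAX and a known repressor of wax synthesis, was at 7.97, 8.03 and 7.54 with chitin, 8.96, 9.44 and 9.88 with OGs and 9.61, 10.39 and 10.51 in controls (-1.58 ± 0.26 log2, SE; limma, adjusted p = 0.0829). ATL8, a RING-type ubiquitin ligase, was at 7.54, 6.25 and 6.72 with chitin, 8.36, 8.27 and 8.17 with OGs and 9.20, 8.10 and 8.79 in controls (-1.43 ± 0.25 log2, SE; limma, adjusted p = 0.0935).

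The OGs mean was above the control mean for AT5G50120, PR-1-LIKE, AT1G44050 and AT1G64405, by 0.71, 0.64, 0.51 and 0.14 log2, and below it for the other members of the 15. AT5G50120, a WD40 repeat protein, was at 5.32, 5.58 and 5.68 with chitin, 6.98, 6.89 and 7.21 with OGs and 6.51, 6.28 and 6.16 in controls. Chitin was below and OGs above every control array, and the difference was -1.50 ± 0.25 log2 (SE; limma, adjusted p = 0.0829). PR-1-LIKE, related to the pathogenesis-related protein PR1, was at 7.01, 6.15 and 6.34 with chitin, 8.46, 7.69 and 7.14 with OGs and 7.23, 7.02 and 7.11 in controls (-1.26 ± 0.35 log2, SE; limma, adjusted p = 0.398). AT1G23390, a kelch repeat F-box protein, differed by -0.98 ± 0.16 log2 (SE; limma, adjusted p = 0.0756), and AT4G28240, of a wound-responsive family, by -0.94 ± 0.17 (adjusted p = 0.127), both with OGs means below the control means. The remaining 7, among them the AP2/ERF protein AT4G39780 and the C1 domain proteins AT3G11370 and AT1G44050, ran from -1.16 to -0.91 with adjusted p of 0.214 to 0.48.

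Gene lists drawn up for these elicitors were then read from the same fit. They hold 332 genes, of which 79 had a named probe set, with 80 probe sets in all, and 1 of the 80 passed, AT3G12910 (0.106% over all probe sets). At an unadjusted p under 0.05 there were 18 of 80, or 22.5%, against 6.36% of all probe sets; the lists were drawn up with earlier results of these arrays known, so the larger share is no independent evidence. The median difference over the 80 was 0.07 log2, against -0.01 for all probe sets.

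**Figure D4:**
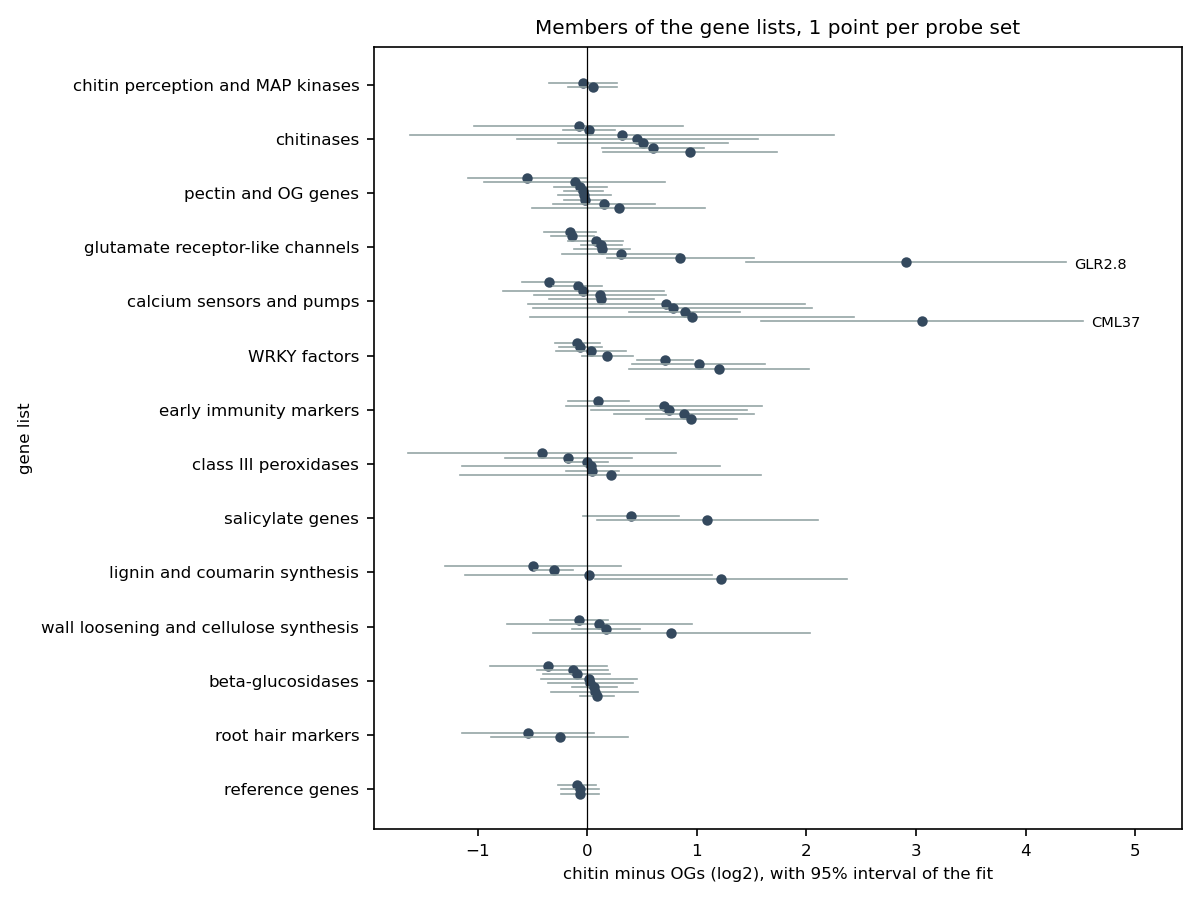
Chitin minus OGs (log2, horizontal) with the 95% interval of the fit for each probe set of the lists with at least 2, 1 point per probe set. Most intervals cross 0, GLR2.8 and CML37 lie far to the right of their lists, and the reference genes and beta-glucosidases sit near 0.

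On the side of perception, the lists had little to read. Of 21 chitin receptor and MAP kinase genes 2 were measured and 0 passed (0 also at an unadjusted p under 0.05). BIK1, a kinase that receptors phosphorylate, averaged 10.01 ± 0.31 with chitin, 10.05 ± 0.33 with OGs and 8.84 ± 0.13 in controls (SD, n = 3), a difference of -0.04 log2 with an interval of -0.35 to 0.27. AT5G18610, which encodes PBL27, a kinase that acts with the chitin receptor, differed by 0.05 log2 (interval -0.18 to 0.27). Of 22 pectin and OG genes 7 were measured, by 8 probe sets, and 0 passed, with a median of -0.03. FER, a receptor kinase that binds pectin, differed by -0.03 (interval -0.27 to 0.22), and AT4G20830, an oxidase that inactivates OGs, by 0.15 (interval -0.32 to 0.61). AT4G20860, an oxidase of cellulose fragments, was the one with non-overlapping arrays: it was at 10.79, 10.91 and 10.78 with chitin, 11.29, 11.05 and 11.79 with OGs and 10.36, 9.68 and 9.40 in controls, a difference of -0.55 ± 0.24 log2 (SE; limma, adjusted p = 0.774).

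Calcium genes ran from -0.35 to 3.06 log2. Of 25 calcium sensors and pumps 10 were measured and 0 passed. An unadjusted p under 0.05 was seen for 3 (6.36% of all probe sets), and the median was 0.43 log2 (-0.01 for all). CML42, a calmodulin-like protein, was at 11.30, 12.07 and 11.68 with chitin, 10.87, 10.38 and 11.15 with OGs and 9.06, 8.87 and 8.89 in controls (0.89 ± 0.23 log2, SE; limma, adjusted p = 0.33). CML43, of the same family, ran the other way, at 7.66, 7.85 and 7.72 with chitin, 7.88, 8.10 and 8.31 with OGs and 7.31, 7.70 and 7.70 in controls (-0.35 ± 0.11 log2, SE; limma, adjusted p = 0.504). Of 20 glutamate receptor-like channel genes 8 were measured and 0 passed, with a median of 0.13 (-0.01 for all probe sets). GLR2.9 was at 4.19, 5.21 and 4.99 with chitin, 3.71, 3.69 and 4.44 with OGs and 3.59, 3.51 and 3.35 in controls, an overlapping difference of 0.85 ± 0.30 log2 (SE; limma, adjusted p = 0.613), and the 6 others besides GLR2.8 lay between -0.16 and 0.31.

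Transcription factors and ubiquitin ligases of early immunity had mostly positive differences that did not pass. Of 30 WRKY genes 7 were measured and 0 passed. An unadjusted p under 0.05 was seen for 3 (6.36% of all probe sets), and the median was 0.18 log2 (-0.01 for all). WRKY53, a factor of defence and senescence, was at 12.78, 13.12 and 12.82 with chitin, 11.77, 11.69 and 12.21 with OGs and 7.35, 6.00 and 6.51 in controls. The groups did not overlap, but the gap of 1.02 ± 0.27 log2 (SE) between the elicitors did not pass (limma, adjusted p = 0.364; interval 0.41 to 1.63) and was small beside that to the controls. WRKY6 was at 10.45, 10.75 and 10.56 with chitin, 9.96, 9.76 and 9.93 with OGs and 8.71, 9.00 and 8.98 in controls (0.71 ± 0.11 log2, SE; limma, adjusted p = 0.0756), and passed without the replicate block (adjusted p = 0.0464). WRKY22, at 10.39 ± 0.17 with chitin, 9.18 ± 0.73 with OGs and 6.50 ± 0.78 in controls (SD, n = 3), had an adjusted p of 0.476 (limma).

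Of 24 early immunity markers 5 were measured and 0 passed. All 5 had a positive difference (46.7% of all probe sets), and 3 an unadjusted p under 0.05 (6.36% of all). PUB19 averaged 7.78 with chitin, 7.08 with OGs and 8.67 in controls, so despite its positive difference both means lay below the control mean. Its chitin arrays overlapped the controls, and its OGs arrays lay below them. EFR differed by 0.10 log2 and was low in every group, at 4.12, 4.02 and 3.97. PUB24, a U-box ligase known to dampen immune responses, was at 10.02, 10.39 and 9.94 with chitin, 9.13, 8.90 and 9.48 with OGs and 7.14, 6.94 and 6.83 in controls (0.95 ± 0.19 log2, SE; limma, adjusted p = 0.159). It passed without OGs replicate 3, at 1.15 log2 (adjusted p = 0.0409, against up to 0.604 for the other single-array omissions). PUB22 and PUB23, related ligases, differed by 0.88 ± 0.28 and 0.75 ± 0.32 log2 (SE; limma, adjusted p = 0.548 and 0.766). Only 1 of 21 AP2/ERF genes of the list was measured, ORA47, a factor linked to jasmonate synthesis. It was at 7.72, 4.45 and 4.11 with chitin, 4.86, 4.32 and 4.46 with OGs and 6.85, 3.97 and 4.05 in controls, where replicate 1 was the high one in every group. Of salicylate genes 2 of 16 were measured and 0 passed: GRX480, a glutaredoxin, at 11.59, 10.26 and 9.42 with chitin, 10.62, 7.94 and 9.43 with OGs and 10.22, 6.61 and 6.73 in controls, and SAG101, a partner of EDS1, at 0.40 ± 0.19 log2 (SE; limma, adjusted p = 0.843). For GRX480 the difference within number 3 was near 0, and the groups overlapped.

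Enzymes gave a mixed picture. Of 12 chitinase genes 7 were measured, 6 with a positive difference (46.7% of all probe sets), and 0 passed. The median was 0.46 log2 (-0.01 for all probe sets) and no group was clear of the other. AT4G01700 was at 10.91, 11.79 and 11.57 with chitin, 10.51, 9.86 and 11.08 with OGs and 9.13, 9.09 and 9.20 in controls (0.94 ± 0.35 log2, SE; limma, adjusted p = 0.666). AT1G02360 differed by 0.60 ± 0.21 and AT2G43590 by 0.51 ± 0.34 log2 (SE; limma, adjusted p = 0.613 and 0.918). Of 12 class III peroxidase genes 6 were measured and 0 passed (0 also at an unadjusted p under 0.05), with a median of 0.01. AT5G64120 was at 11.09, 12.71 and 12.09 with chitin, 12.33, 11.33 and 13.48 with OGs and 10.94, 10.74 and 11.06 in controls, so the elicitors overlapped widely. AT5G66390, of the same class, differed by 0.05 log2 (interval -0.20 to 0.29).

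Of 21 lignin and coumarin genes 4 were measured and 0 passed. CCR2, a cinnamoyl-CoA reductase, was at 8.64, 9.24 and 8.59 with chitin, 8.40, 6.13 and 8.30 with OGs and 5.54, 4.89 and 4.89 in controls (1.22 ± 0.51 log2, SE; limma, adjusted p = 0.759). The gap rested mainly on the low OGs replicate 2. HCT, an acyltransferase of lignin synthesis, differed by -0.31 ± 0.08 log2 (SE; limma, adjusted p = 0.345), at 9.90 ± 0.10 with chitin, 10.21 ± 0.10 with OGs and 10.24 ± 0.07 in controls (SD, n = 3). AT3G13610, a hydroxylase of scopoletin synthesis, was at 9.02, 9.27 and 9.39 with chitin, 9.35, 9.04 and 10.80 with OGs and 9.00, 9.01 and 8.88 in controls, so that OGs replicate 3 alone stood out. Of 14 beta-glucosidase genes 8 were measured, all between -0.36 and 0.09 log2, and 0 passed or had an unadjusted p under 0.05. BGLU27 differed by 0.02 log2 (interval -0.42 to 0.45) and PYK10, a main protein of root ER bodies, by 0.02 (interval -0.36 to 0.41). Of 12 genes of wall loosening and cellulose synthesis 4 were measured and 0 passed, with EXLA3 at 0.77 ± 0.56, EXLA2 at 0.17 ± 0.14 and COB at -0.08 ± 0.12 log2 (SE; limma, adjusted p = 0.934, 0.948 and 0.976).

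Markers and reference genes did not pass. EXPA7 and EXPA18, the measured 2 of 7 root hair markers, differed by -0.54 ± 0.27 and -0.25 ± 0.28 log2 (SE) and RCA, 1 of 5 shoot markers, by 0.13 ± 0.34, all with overlapping groups (limma, adjusted p = 0.848, 0.97 and 0.988). PEX4, AT4G34270 and AT2G28390, used as references in qRT-PCR, differed by -0.07, -0.09 and -0.07 log2, with intervals from -0.27 to 0.10. EIN3, the one measured ethylene gene of 15, differed by -0.13 log2 (interval -0.39 to 0.13). The jasmonate genes and the markers of endodermis, root cap and vascular cells had 0 named probe sets and were not analysed here.

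Probe sets were also chosen on other arrays, cellobiose against control, and read in the chitin and OGs arrays. The choice covers only genes that respond to cellobiose. It cannot show which elicitor gave larger changes as a whole, since genes that cellobiose left unchanged were not read. Cellobiose, a glucose disaccharide from cellulose, raised 669 probe sets by at least 2-fold (limma on those 6 arrays, adjusted p under 0.05; 2.94% of all probe sets). Their median level above the control mean was 1.90, 2.22 and 1.92 log2 on the chitin arrays and 1.44, 1.06 and 1.82 on the OGs arrays. Every chitin array was above every OGs array for these 669, by a narrow margin over OGs replicate 3. Over all 1049 probe sets raised by cellobiose (4.61% of all probe sets), with no cut on fold, the medians were 1.27, 1.55 and 1.25 on the chitin arrays and 1.00, 0.75 and 1.34 on the OGs arrays. There the groups overlapped, since OGs replicate 3 lay above chitin replicates 1 and 3. The chitin minus OGs difference was positive for 612 of the 669, or 91.5%, against 46.7% of all probe sets, with a median of 0.50 log2. Within numbers the median was 0.40, 1.07 and 0.07, so that number 2 had the largest gap and number 3 almost none. Over the 1049 it was 0.22, 0.75 and -0.003, with a median of 0.31 log2 and 84.3% positive. Of the 669, 12 were among the 16 called higher with chitin, which are 0.0703% of all probe sets. The cellobiose and control arrays that chose the 669 also entered the fit that called the 16, so this overlap is no separate result.

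The 129 probe sets that cellobiose lowered by at least 2-fold (0.567% of all probe sets) showed less of this. Their median level relative to the control mean was -1.10, -1.34 and -1.49 log2 on the chitin arrays and -1.10, -0.59 and -1.17 on the OGs arrays. The groups overlapped, and OGs replicate 2 was nearest to control. The median difference of chitin minus OGs was -0.29 log2 over the 129 and -0.05, -0.70 and -0.17 within numbers. It was positive for 29 of the 129, or 22.5%, against 46.7% of all probe sets. Over all 631 probe sets lowered by cellobiose, with no cut on fold, 21.6% were positive and the median was -0.125 log2. The control mean is the same in all of these levels and cancels in the differences. This choice of probe sets was made after the called genes were known, and probe sets are not independent, so the counts are given with no test.

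**Figure D5:**
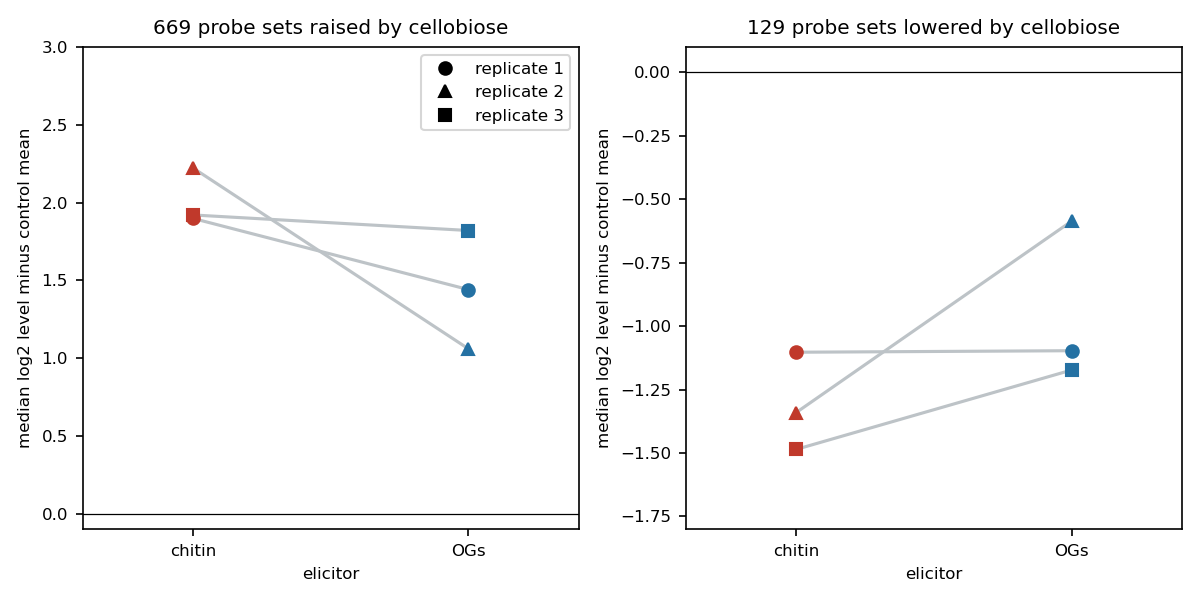
Median log2 level minus the control mean (vertical) on each chitin and OGs array, over 669 probe sets raised (left) and 129 lowered (right) at least 2-fold by cellobiose; lines join arrays of one replicate number. On the left replicate 2 has the steepest line and replicate 3 is nearly flat, and on the right replicate 1 is flat.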

How the data were processed

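The authors deposited log2 probe set intensities normalized with GCRMA, per the series' design text. Affymetrix Expression Console is also named, without version or role, per the submitters' processing notes. Of 22810 rows 64 Affymetrix control probe sets were left out and 22746 tested. Gene names came from the platform annotation at GEO, updated by gene ID with the RefSeq annotation of the TAIR10.1 assembly (13436 of 13513 single-gene probe sets matched), used for names only.

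limma 3.58.1 in R 4.3.3 fitted treatment, with replicate number as a block, to all 12 arrays (6 residual and 3.09 prior degrees of freedom), and the contrast was chitin minus OGs. The block follows the design text, where ratios are formed within pairs of samples. All tests were two-sided, with Benjamini-Hochberg adjustment over all 22746, and SE and 95% intervals come from that fit. Named were called probe sets (up to 20 each way), the 15 highest and 15 lowest single-gene differences (3 pairs of one sign, unadjusted p under 0.01) and up to 3 members per list with the smallest p. Further genes named outside these rules were chosen after their values were seen: 261082_at, PYK10, AT4G37290 and, where a list is described, its other members. The comparison, lists and rules were chosen with earlier results of these data known. The p-values rest on a spread pooled over all 12 arrays and a prior shared by all probe sets, which may be partly technical. Where groups differ in spread, the SE is not that of the chitin and OGs arrays alone. For 249495_at the SD was 0.648 with chitin, 0.014 with OGs, 0.029 in controls and 0.095 with cellobiose. The number of arrays limits the precision. The fit was tested on simulated arrays with independent noise of the same spread in every group and no replicate effect. Of 50 probe sets each shifted by 0.5, 1, 2 or 3 log2, 18, 44, 49 and 50 were called, with 15 false calls. Spread differs between the groups of real arrays, so the simulation does not give the error rate here. Alternatives covered the block, the arrays fitted, the variance prior, low values, scaling and single arrays.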

Additional observations from a re-analysis of the deposited data

How the results depend on the processing

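Of the 24 called probe sets, 16 higher and 8 lower with chitin, many calls did not last under the alternative runs. None changed sign, which could hardly have been otherwise. Runs that altered only the block, prior or threshold kept the same difference, and all 24 had 3 pairs of one sign. An intensity trend in the prior called 37 (26 higher, 11 lower), and an adjusted p under 0.1 called 70 (41 higher, 29 lower). The 6 chitin and OGs arrays alone called 0 (0 higher, 0 lower; 1152 at an unadjusted p under 0.05), with 2 residual degrees of freedom. Ordinary t statistics called 1 (0 higher, 1 lower; 1394 unadjusted). Spike-in scaling called 312 (250 higher, 62 lower) with limma, whose prior variance was then shared fully by all probe sets, and 0 (0 higher, 0 lower; 437 unadjusted) with ordinary t statistics. Leaving out single arrays or one replicate number gave 2 to 105 in all, 2 to 82 higher and 0 to 23 lower; the highest came without OGs replicate 3, and the cause was not tested. Other settings stayed within 1.5 times the count of 24, namely 18 (robust prior), 21 (chitin, OGs and control arrays), 22 (mean of at least 5) and 24 (quantile normalization again, or median centring). Similar counts did not always mean the same probe sets: 18, 14, 22, 23 and 22 of these, in that order, were among the main 24. Without chitin replicate 1, 10 of the 19 called were. Without the replicate block 32 were called (23 higher, 9 lower), 19 of them among the 24. Same-numbered chitin and OGs arrays deviated from their group means with correlations of 0.395, -0.051 and 0.133 for numbers 1, 2 and 3. Chitin replicate 1 correlated at -0.005 and -0.344 with OGs replicates 2 and 3, and chitin replicate 2 at 0.253 with OGs replicate 3. The number 1 arrays thus deviated together, while the arrays do not show that numbers 2 and 3 pair samples. No detection calls were used, so which low levels lie above background is not known.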
